A study of Homo sapiens with 12 samples.

Results

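Gene expression of cells labelled MDA-MB-231 and grown in DMEM (Dulbecco's modification of Eagle's medium) was compared with that of cells of the same label grown in MEM (minimum essential medium). MDA-MB-231 is an established human breast carcinoma line of the basal, mesenchymal-like kind. The comparison used 4 of the 12 arrays of the study, chosen by their labels, and all 47231 probes of the array. On 2 arrays the cells were in DMEM with 10% fetal bovine serum (FBS) at 90% confluence, and on 2 they were in MEM with 10% FBS at 90% confluence. The other 8 arrays, also 2 per condition, held cells in RPMI-1640 with 10% FBS at 90% confluence, in MEM with 10% horse serum (HS) at 90% confluence, in MEM with 0.1% FBS at 90% confluence, and in MEM with 10% FBS at 50% confluence. Both media had the same supplements of glutamine, pyruvate, non-essential amino acids, vitamins and antibiotics. The labels do not say whether the 2 arrays of a condition came from separate cultures, so the p-values measure only the spread between these arrays, which may be technical.

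DMEM is a richer relative of MEM, with more glucose, amino acids and vitamins. Cultured cells read such differences through nutrient sensors. SREBP transcription factors raise the enzymes of cholesterol and fatty acid synthesis when membrane sterol is low, ATF4 raises amino acid genes when amino acids run short, and MondoA, with its partner MLX, raises TXNIP when glucose phosphates build up. Because 3 of the other conditions also used MEM, a difference between DMEM and MEM could be set beside a difference between the MEM arrays and cells in that same medium under another serum or density.

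Values are log2 signals, normalized by quantiles between the 12 arrays by the authors. Background on each array, the 95th percentile of 463 olfactory receptor probes, lay between 6.90 and 6.99 on the log2 scale. Over all probes the DMEM arrays correlated with each other at r = 0.991 and the MEM arrays at r = 0.996, while DMEM with MEM arrays gave 0.932 to 0.933. The DMEM arrays correlated with the other 4 conditions at 0.967 to 0.982 and the MEM arrays with those at 0.914 to 0.940. Probes are no independent replicates, so these coefficients describe the arrays only. The MEM pair lay farther from the other 4 conditions than the DMEM pair did.

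The markers of the labelled line were not equally present in the 2 conditions. Of 24 genes typical of MDA-MB-231 cells, 15 were above background on both DMEM arrays, against 24 on both MEM arrays. EGFR, LOX, MMP14, KRT8, F3 and IL6 were above background on no DMEM array. The summed linear signal of this list was 36087 and 37751 in DMEM, against 50516 and 57037 in MEM, and 40688 to 51425 in the other 4 conditions. Bright genes weigh most in such a sum. VIM, a bright member, averaged 13.83 in DMEM and 13.76 in MEM on the log2 scale, against 14.32 in RPMI-1640 and 14.25 at 50% confluence. A list of 22 melanocyte and neural crest genes ran the other way, with summed signals of 10389 and 11340 in DMEM, against 4315 and 4560 in MEM, and 6302 to 20937 elsewhere. Of this second list 16 genes were above background on both DMEM arrays, against 15 on both MEM arrays, while the pigment genes TYRP1 and SLC45A2 and the glial gene S100B were above it on no array of either. Lists for fibroblasts (1459 and 1460 in DMEM, against 1779 and 1829 in MEM) and blood cells (2190 and 2271 in DMEM, against 1998 and 2001 in MEM) were low in both. A list of 14 luminal breast epithelium genes summed to 6304 and 6507 in DMEM, against 4709 and 5022 in MEM, and to 4836 to 11463 elsewhere. Of these 14, 2 were higher and 2 lower in DMEM than in MEM (11.9% and 12% of all gene symbols). Their median log2 difference was -0.03, and 5 were above background on both arrays of either condition. The part of these marker differences in the results was not tested, and the DMEM and MEM arrays alone cannot tell medium from cell population. HS, 0.1% FBS and 50% confluence were also in MEM, with another serum, serum level or density. On the 24 MDA-MB-231 genes the MEM pair was higher than these on 14, 16 and 14, and lower on 4, 1 and 5. On the 22 melanocyte and neural crest genes it was lower on 10, 16 and 8, and higher on 1, 0 and 2. Over all 31334 gene symbols the MEM pair was higher than these conditions, in the same order, on 3989, 4114 and 3682. It was lower on 3764, 3890 and 3369 symbols. These counts used limma at an adjusted p under 0.05. Whether the cell population differed between conditions was not tested.

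A total of 9894 probes (20.9% of 47231) differed between DMEM and MEM at an adjusted p under 0.05 (limma on all 12 arrays, Benjamini-Hochberg), 4744 higher (10% of probes) and 5150 lower (10.9%) in DMEM. Of these, 2408 (5.1% of all probes) differed by at least 2-fold, 1225 higher and 1183 lower. Each called probe was then asked whether DMEM also differed from the other 5 conditions, each tested and all in the same direction, or whether MEM did. Only DMEM stood apart on 126 probes, only MEM on 4971, both on 33 and neither on 4764. DMEM thus stood apart from all 5 on 159 probes, 0.337% of those measured, with 94 higher (0.199%) and 65 lower (0.138%), and MEM on 5004, 10.6%. Among the 2-fold differences the share at which only MEM stood apart was 85.6%, against 1.54% at which only DMEM did. The same criterion gave 1 probe for RPMI-1640, 274 for HS, 1120 for 0.1% FBS and 25 for 50% confluence.

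**Figure D1:**
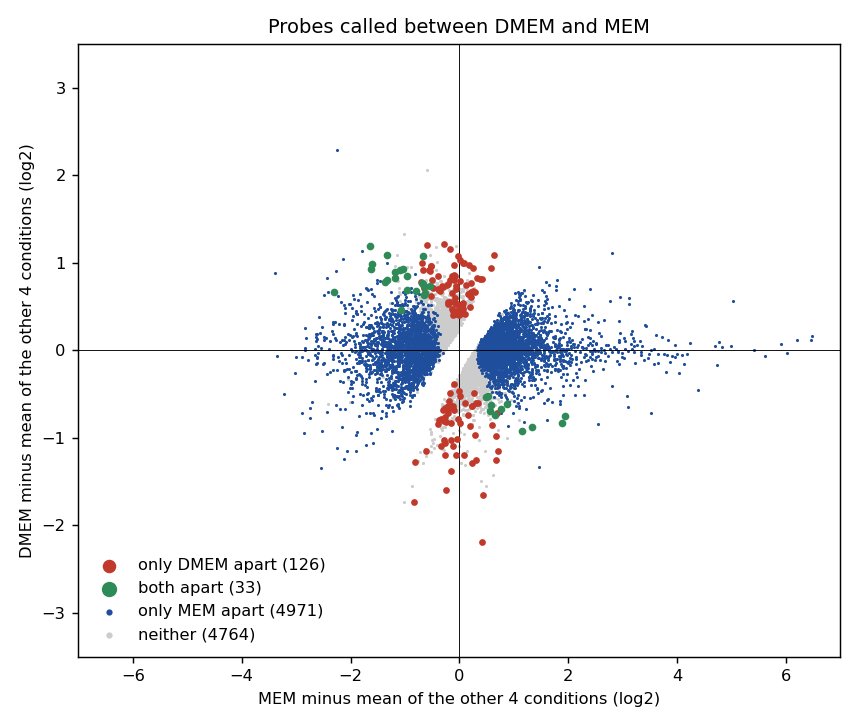
Each point is a probe called between DMEM and MEM, placed by the log2 difference of DMEM (y axis) and of MEM (x axis) from the mean of RPMI-1640, HS, 0.1% FBS and 50% confluence. The 126 probes on which only DMEM stood apart spread along the y axis, and the 4971 on which only MEM did spread along the x axis.

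The sizes of the differences were split in the same way. Over the 9894 called probes the median absolute log2 difference of DMEM from the mean of the other 4 conditions was 0.17, against 0.58 for MEM from that mean. Tested on its own, DMEM differed from that mean on 3603 probes (7.63%), 1799 higher (3.81%) and 1804 lower (3.82%), of which 99 by at least 2-fold. This count was 1504 without DMEM replicate 1, 1112 without DMEM replicate 2 and 2935 without either MEM array. The number on which DMEM stood apart, 159 with all arrays, was 79 without DMEM replicate 1 and 67 without DMEM replicate 2. It was 104 without MEM replicate 1 and 101 without MEM replicate 2.

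The genes on which DMEM stood apart from all other conditions were few and moderate in size. Those with the widest margin on the high side included replication-dependent histone genes, acetyl-CoA and sugar metabolism enzymes and chromatin regulators, and those on the low side a ceramide glycosylation enzyme and RNA-binding proteins. HIST2H2AA4, a histone H2A gene with a near-identical copy, gave 9.95 and 10.16 in DMEM, against 8.73 and 8.72 in MEM. Its log2 difference was 1.33 ± 0.14 (SE, adjusted p = 3.66e-06, limma), and the other 4 conditions averaged 8.76 to 9.08. No array of any other condition reached the level of either DMEM array.

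Of 75 probes for genes of the HIST clusters, 4 set DMEM apart and all 4 were higher (0.199% of all probes). They belong to HIST2H2AA4, HIST2H2AA3, HIST2H2AC and HIST1H2BJ. A second HIST2H2AA3 probe did not set DMEM apart (adjusted p = 0.122 against 0.1% FBS and 0.146 against 50% confluence, limma). Since HIST2H2AA4 has a near-identical copy, the probes of these genes may not be separate evidence. HIST2H2AC, another H2A gene, gave 9.48 and 9.35 in DMEM, against 8.31 and 8.37 in MEM, and HIST1H2BJ, a histone H2B gene, gave 7.76 and 7.88 in DMEM, against 7.06 and 7.05 in MEM. Against MEM, 17 histone probes were higher in DMEM (10% of all probes) and 2 lower (10.9%), and against RPMI-1640 13 were higher (2.35%) and 0 lower (2.98%) at an adjusted p under 0.05 in limma. The median log2 difference of the 75 probes was 0.10 from MEM and 0.06 from RPMI-1640, and only 27 were above background on both DMEM arrays. The probe of HIST1H4C, a replication-dependent H4 gene and the brightest of the family, gave 14.06 and 14.01 in DMEM, against 13.60 and 12.98 in MEM. It passed the test against MEM (adjusted p = 0.00429, limma) but not against RPMI-1640, where it averaged 13.95.

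Several metabolic enzymes were among the highest. ACSS1, which makes acetyl-CoA from acetate in mitochondria, gave 8.88 and 8.42 in DMEM, against 7.22 and 7.12 in MEM (log2 difference 1.48 ± 0.13, SE, adjusted p = 2.95e-07, limma). UAP1L1, a relative of the enzyme that forms UDP-N-acetylglucosamine, gave 9.27 and 9.33 in DMEM, against 7.85 and 7.75 in MEM, and its nearest other condition was HS at 8.56. SLC2A6, a hexose transporter of lysosomal membranes, gave 9.76 and 9.55 in DMEM, against 8.63 and 8.62 in MEM, with RPMI-1640 lowest of all at 8.16. All 3 separated the DMEM arrays from the other 10 without overlap.

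The remaining increases with a wide margin had varied roles. DAG1 encodes dystroglycan, a matrix receptor, and gave 10.76 and 10.59 in DMEM, against 9.64 and 9.50 in MEM. JMJD6, a nuclear oxygenase linked to splicing, gave 8.86 and 8.83 in DMEM, against 8.02 and 7.84 in MEM, and RERE, a nuclear receptor corepressor, gave 9.51 and 9.50 in DMEM, against 8.03 and 8.04 in MEM. SECISBP2L, a relative of the factor that reads selenocysteine codons, gave 8.96 and 8.72 in DMEM, against 7.94 and 7.83 in MEM. FAM53B, an activator of Wnt signaling described in zebrafish, gave 9.12 and 9.22 in DMEM, against 7.34 and 7.51 in MEM. MEM was also the lowest condition for FAM53B, which counts among the 33 probes on which both media stood apart. Others of these 33 were HYAL1, a hyaluronan-degrading enzyme (9.95 and 10.06 in DMEM, against 7.17 and 7.20 in MEM), the transcription factor TBX2 (9.58 and 9.63 in DMEM, against 7.03 and 7.01 in MEM) and the imprinted RNA H19 (9.40 and 9.67 in DMEM, against 6.58 and 6.57 in MEM). The last 3 were chosen after their values were seen. A second HYAL1 probe gave 7.49 and 7.63 in DMEM, against 6.77 and 6.66 in MEM. It did not differ from 0.1% FBS (adjusted p = 0.935, limma), and the remaining HYAL1 probes did not pass the test against MEM.

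**Figure D2:**
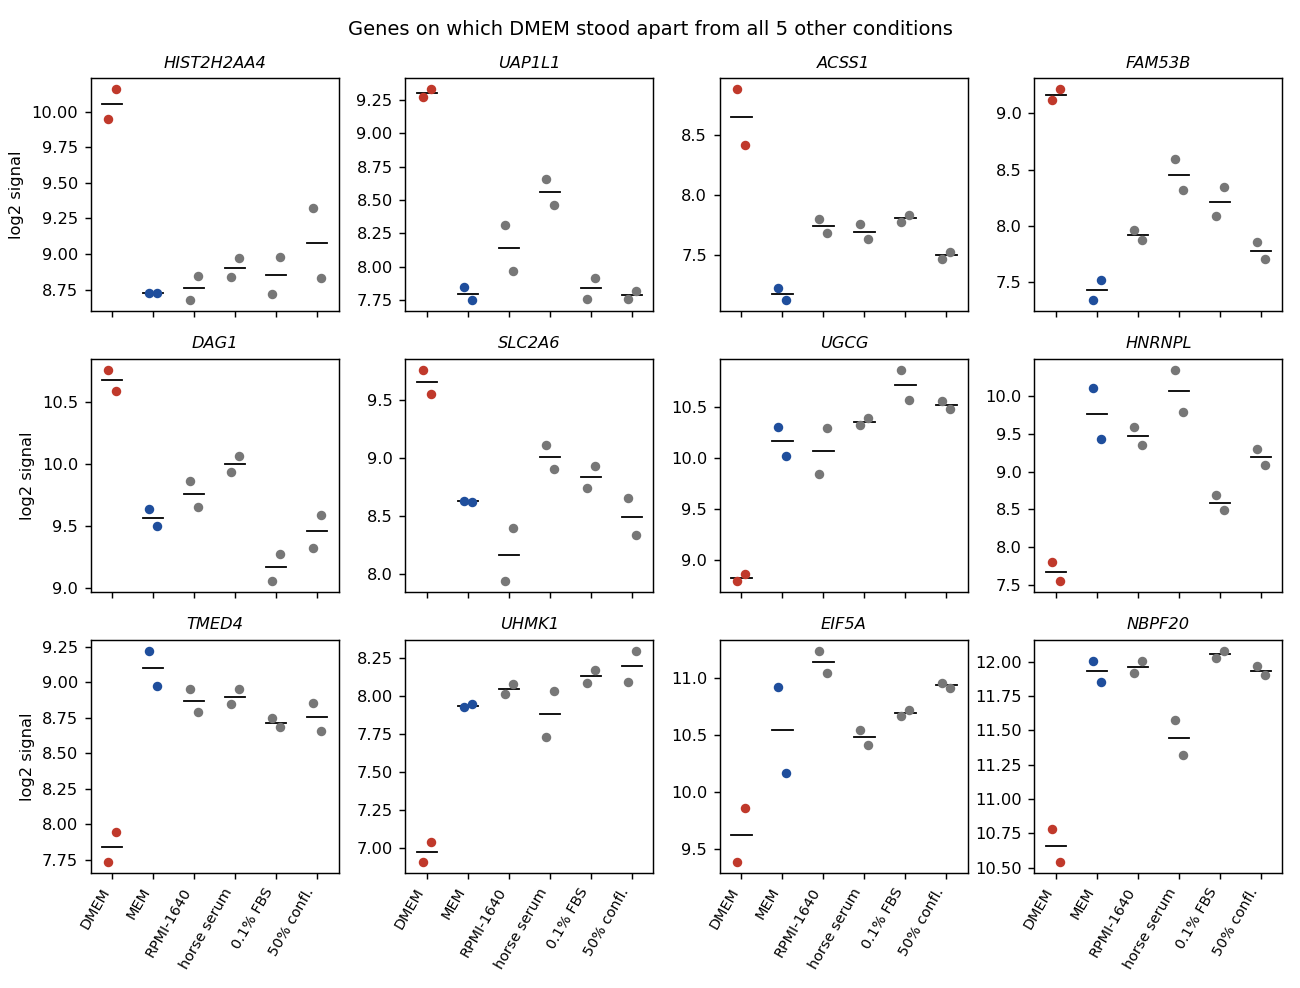
Log2 signal of 12 genes on the 2 arrays of each condition (points) with the mean (line), on y axes that do not start at 0. In the first 6 panels both DMEM arrays lie above all 10 others, and in the last 6 below them.

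On the low side the widest margin was that of UGCG, which adds glucose to ceramide in the first step of glycosphingolipid synthesis. UGCG gave 8.79 and 8.86 in DMEM, against 10.31 and 10.02 in MEM, and the other 4 conditions averaged 10.07 to 10.72. The log2 difference from MEM was -1.34 ± 0.14 (SE, adjusted p = 2.83e-06, limma), and that from the mean of the other 4 was -1.59. The MEM mean lay within the range of those others, and the DMEM arrays were below all 10 other arrays.

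HNRNPL, a splicing regulator that binds CA repeats, gave 7.80 and 7.55 in DMEM, against 10.10 and 9.44 in MEM (log2 difference -2.10 ± 0.20, SE, adjusted p = 8.64e-07, limma). Of 55 probes for hnRNP genes 3 set DMEM apart, all lower (0.138% of all probes), among them one for HNRNPH1 under its older symbol HNRPH1 (8.07 and 7.66 in DMEM, against 9.68 and 9.91 in MEM). A probe under the current symbol was lower than in MEM but did not differ from 0.1% FBS (log2 difference -0.27, adjusted p = 0.473, limma). Another HNRPH1 probe did not pass the test against MEM. Against RPMI-1640, 9 of the 55 were lower (2.98% of all probes) and 0 higher. UHMK1, a kinase that acts on the splicing factor SF1, gave 6.91 and 7.04 in DMEM, against 7.93 and 7.95 in MEM, and TMED4, a cargo receptor of the early secretory pathway, gave 7.73 and 7.94 in DMEM, against 9.22 and 8.97 in MEM. EIF5A, a translation elongation factor, gave 9.39 and 9.86 in DMEM, against 10.92 and 10.16 in MEM, with a wide spread between its 2 MEM arrays.

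Among the 12 decreases with the widest margin 4 were loci without a gene name and 3 were NBPF genes, a primate family of near-identical copies. NBPF8 gave 8.37 and 8.31 in DMEM, against 9.26 and 9.21 in MEM. NBPF20 gave 10.78 and 10.54 in DMEM, against 12.01 and 11.85 in MEM, and NBPF10 gave 10.91 and 10.68 in DMEM, against 12.05 and 11.81 in MEM. A second NBPF10 probe and a second NBPF8 probe did not pass the test against MEM (adjusted p = 0.805 and 0.0997, limma). Of 39 NBPF probes 4 set DMEM apart, all lower (0.138% of all probes), and 9 were lower than in RPMI-1640 (2.98%) with 0 higher (2.35%). Since the members share sequence, their probes are uncertain and are no separate evidence for each gene. Loci with LOC symbols made up 22 of the 65 decreases (0.138% of all probes) and 7 of the 94 increases (0.199% of all probes). Such probes are 11650 of the 47231 on the array.

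Cholesterol genes were higher in DMEM against most of the other conditions. Of 25 genes of cholesterol synthesis and uptake, 15 were higher in DMEM than in MEM (11.9% of all 31334 gene symbols) and 1 was lower (12% of symbols). Their median log2 difference was 0.67, against 0.01 over all symbols. The counts were alike against RPMI-1640, HS and 50% confluence. HS and 50% confluence were in MEM, so medium differed there together with serum or density. All these counts use the same DMEM arrays and are not independent. In DMEM, 16 of 25 were higher than in RPMI-1640 (2.94% of symbols), 16 higher than with HS (3.24%) and 17 higher than at 50% confluence (4.91%). The numbers lower were 0 (2.89% of symbols), 0 (2.7%) and 1 (4.35%). Against the mean of the other 4 conditions 16 were higher and 1 lower in DMEM (4.66% and 3.87% of symbols), while in MEM 3 were higher and 12 lower (13.9% and 12.9%).

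The levels of single members show both sides. HMGCS1, which makes the HMG-CoA from which sterols start, gave 11.09 and 10.96 in DMEM, against 8.35 and 8.38 in MEM (log2 difference 2.66 ± 0.19, SE, adjusted p = 5.01e-08, limma). RPMI-1640 averaged 8.45, HS 8.77 and 50% confluence 7.85, so the MEM level lay among these 3 while both DMEM arrays were above them. For FDFT1 and SQLE, the enzymes that make and then oxidize squalene, MEM was also lower than the other conditions. FDFT1 gave 12.26 and 12.38 in DMEM, against 9.81 and 9.77 in MEM, and SQLE gave 10.34 and 10.25 in DMEM, against 7.97 and 7.99 in MEM. In both genes the MEM arrays were below all 10 others. LSS, which closes the sterol rings, gave 10.51 and 10.30 in DMEM, against 8.08 and 8.01 in MEM, and INSIG1, the sterol-dependent brake on SREBP, gave 10.94 and 10.68 in DMEM, against 8.52 and 8.62 in MEM.

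The condition nearest to DMEM on these genes was 0.1% FBS, in which serum lipoprotein is scarce. INSIG1 averaged 11.32 there, SC4MOL 10.55 and HMGCS1 10.77, and DMEM was higher than 0.1% FBS on 4 of the 25 genes (MVK, PMVK, NSDHL and EBP; 7.05% of symbols) and lower on 6 (6.51%). With 0.1% FBS among the conditions, 3 members set DMEM apart from all 5 conditions, all higher, against 0.259% of symbols. EBP, a sterol isomerase, gave 11.12 and 11.18 in DMEM, against 10.11 and 10.10 in MEM. NSDHL, which acts in removing sterol methyl groups, gave 10.19 and 10.15 in DMEM, against 8.38 and 8.33 in MEM, and MVK, mevalonate kinase, gave 7.71 and 7.54 in DMEM, against 7.11 and 7.20 in MEM. In an alternative chosen after seeing the data, with the 0.1% FBS arrays left out of the conditions compared, 14 of 25 set DMEM apart (0.514% of symbols). They included INSIG1, ACAT2, HMGCS1, MVK, FDFT1, SQLE, LSS, SC4MOL, NSDHL, EBP, SC5DL and DHCR7. SREBF2, TM7SF2 and CYP51A1 did not pass the test against MEM, with log2 differences of 0.15, -0.18 and -0.31. STARD4, a sterol carrier, was the member that was lower, at 6.55 and 6.57 in DMEM, against 6.95 and 6.94 in MEM, with neither DMEM array above background.

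Promoters of HMGCS1, LSS and INSIG1 are shown because these genes were among the most increased, at log2 differences of 2.66, 2.35 and 2.24. The choice also filtered genes by chromosome. FDFT1 and SQLE, at log2 differences of 2.53 and 2.32, are not shown. Each line is the 250 bases before the RefSeq start site (GRCh38.p14), 5′ to 3′ on the gene's strand, with matches to CCAAT on either strand in capitals, all of them on the opposite strand. CCAAT is the box of the factor NF-Y, which works beside SREBP at sterol genes.
HMGCS1 (chr5:43313413-43313662, minus strand): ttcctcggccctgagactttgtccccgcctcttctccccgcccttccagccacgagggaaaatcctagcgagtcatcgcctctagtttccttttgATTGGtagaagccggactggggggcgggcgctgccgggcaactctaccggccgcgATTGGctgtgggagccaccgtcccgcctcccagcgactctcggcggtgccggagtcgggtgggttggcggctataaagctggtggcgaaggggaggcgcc
LSS (chr21:46228775-46229024, minus strand): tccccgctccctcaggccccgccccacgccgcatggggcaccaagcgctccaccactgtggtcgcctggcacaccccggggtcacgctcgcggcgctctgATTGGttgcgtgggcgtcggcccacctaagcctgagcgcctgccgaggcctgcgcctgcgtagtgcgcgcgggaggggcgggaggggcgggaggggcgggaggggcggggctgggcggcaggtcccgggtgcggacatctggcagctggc
INSIG1 (chr7:155297628-155297877, plus strand): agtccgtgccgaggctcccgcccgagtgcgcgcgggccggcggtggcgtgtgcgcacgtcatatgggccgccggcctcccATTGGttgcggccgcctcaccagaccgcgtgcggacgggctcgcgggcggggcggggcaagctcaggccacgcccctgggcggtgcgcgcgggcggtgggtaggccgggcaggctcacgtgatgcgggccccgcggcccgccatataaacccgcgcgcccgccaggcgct
HMGCS1 held 2 matches, 155 and 100 bases before the start, LSS held 1 at 150 bases and INSIG1 held 1 at 170 bases. In windows that reach 50 bases further, past the start, CCAAT on either strand was found in 15 of the 18 cholesterol genes with a RefSeq promoter here (83.3%) and in 35.7% of 27305 promoters. These counts describe letters, and no binding was measured.

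Fatty acid genes split. Of 17 genes of fatty acid synthesis and desaturation, 8 were higher and 5 lower in DMEM than in MEM (11.9% and 12% of symbols), with a median log2 difference of 0.43. Against RPMI-1640, 8 were higher and 0 lower (2.94% and 2.89%). FASN, the fatty acid synthase, gave 12.93 and 12.83 in DMEM, against 11.06 and 11.03 in MEM, and SCD, the main desaturase, gave 11.72 and 11.66 in DMEM, against 10.66 and 10.84 in MEM. LPIN1, a phosphatidate phosphatase of glycerolipid synthesis, gave 10.63 and 10.47 in DMEM, against 8.60 and 8.66 in MEM. All 3 were below their DMEM level in RPMI-1640, at 11.56, 10.83 and 9.41. SREBF1, which encodes SREBP-1, was the member that set DMEM apart from all 5 conditions, at 8.77 and 8.95 in DMEM, against 8.32 and 8.40 in MEM. With 0.1% FBS left out, SREBF1, ACACA, FASN, SCD, ACSS2 and LPIN1 did. The 5 that were lower, ELOVL5, ME1, FADS1, GPAM and FADS2, were led by ELOVL5, an elongase of polyunsaturated fatty acids (8.97 and 9.08 in DMEM, against 10.25 and 10.50 in MEM), and the cytosolic malic enzyme ME1 (6.74 and 6.61 in DMEM, against 7.91 and 8.06 in MEM). For those 2 genes RPMI-1640 averaged 9.37 and 6.74, near DMEM, so MEM was the high condition.

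**Figure D3:**
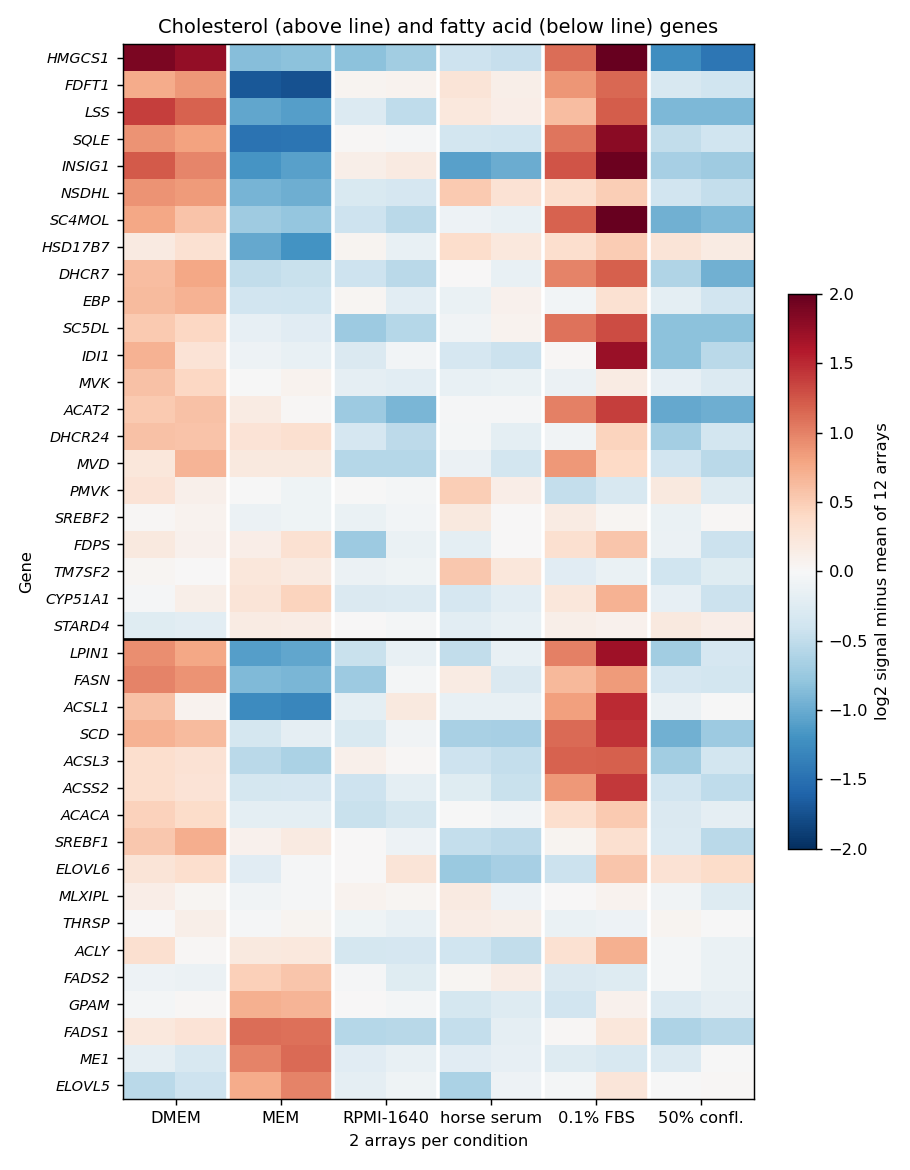
Log2 signal minus the mean of the 12 arrays for 22 of the 25 cholesterol genes (above the line) and 17 fatty acid genes (below it), each ordered by DMEM minus MEM, with 2 arrays per condition and colors limited at 2 on either side. The upper part of the cholesterol group is red in DMEM and 0.1% FBS and blue in MEM.

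The glucose-sensing genes did not move together. TXNIP, which curbs glucose uptake and is raised by MondoA, gave 9.87 and 9.81 in DMEM, against 12.53 and 12.31 in MEM (log2 difference -2.58 ± 0.12, SE, adjusted p = 2.65e-10, limma). It was lower in DMEM than in RPMI-1640 as well, where it averaged 10.63 (log2 difference -0.79, adjusted p = 0.00079, limma), and higher than with HS (7.88) or 0.1% FBS (8.37). KLF10, a repressor also induced by TGF-beta, gave 6.75 and 6.83 in DMEM, against 8.33 and 8.01 in MEM and was below background on both DMEM arrays. PFKFB4, which makes the allosteric activator of phosphofructokinase, was higher, at 9.69 and 9.56 in DMEM, against 8.72 and 8.76 in MEM. Of the 14 genes in the list, 4 were higher and 2 lower in DMEM (11.9% and 12% of symbols), with a median log2 difference of 0.05. The TXNIP promoter is shown for its 2 E-box half-sites CACGAG, in capitals, which form the carbohydrate response element read by MondoA and ChREBP. It covers the 250 bases before the RefSeq start (GRCh38.p14).
TXNIP (chr1:145996580-145996829, minus strand): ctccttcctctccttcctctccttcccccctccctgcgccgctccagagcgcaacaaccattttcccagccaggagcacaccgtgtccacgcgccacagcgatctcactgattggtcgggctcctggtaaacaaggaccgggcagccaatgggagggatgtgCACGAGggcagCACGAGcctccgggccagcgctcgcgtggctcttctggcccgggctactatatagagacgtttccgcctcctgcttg
The matches begin 88 and 77 bases before the start. CACGAG, searched on both strands in windows that reach 50 bases past the start, was found in 1 of the 13 listed genes with a RefSeq promoter here, TXNIP itself, and in 6.79% of 27305 promoters.

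Glycolysis genes went both ways, with 5 of 21 higher and 7 lower in DMEM than in MEM (11.9% and 12% of symbols). Their median log2 difference was -0.09. The largest decreases were in SLC16A3, the lactate exporter (8.39 and 8.76 in DMEM, against 11.65 and 11.80 in MEM), ALDOC, a brain-type aldolase (7.24 and 7.40 in DMEM, against 10.22 and 10.12 in MEM), and ENO2, a neuronal enolase (7.71 and 8.12 in DMEM, against 10.57 and 10.43 in MEM). In RPMI-1640 these averaged 8.09, 7.21 and 7.71, near their DMEM levels. Against RPMI-1640, 3 of the 21 were higher and 0 lower in DMEM (2.94% and 2.89%).

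Direct comparison with RPMI-1640, the other medium that is not MEM, gave 2516 called probes (5.33%), 1108 higher and 1408 lower in DMEM, of which 219 differed by at least 2-fold. This number was 1245 without DMEM replicate 1 and 1083 without DMEM replicate 2. S100A4, a calcium-binding protein tied to motility and metastasis, differed from both MEM and RPMI-1640. Its brighter probe gave 12.31 and 12.23 in DMEM, against 7.90 and 8.09 in MEM, and RPMI-1640 averaged 11.02 (log2 difference of DMEM 1.25, adjusted p = 4.33e-05, limma). Its second probe gave 12.08 and 12.06 in DMEM, against 7.47 and 7.59 in MEM, with RPMI-1640 at 9.03. With HS the 2 probes averaged 12.21 and 11.86, close to DMEM.

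The largest increases in DMEM were mostly genes that were low in MEM alone. Beside S100A4 (log2 difference 4.27 ± 0.13, SE, adjusted p = 3.23e-12, limma) they were LOC649143, TBC1D16, CCL2, TNFRSF14, MT1F, HLA-DRB4 and COL8A1. TBC1D16, a Rab GTPase regulator, gave 12.50 and 12.40 in DMEM, against 9.22 and 9.17 in MEM, and the monocyte chemokine CCL2 gave 10.17 and 10.13 in DMEM, against 6.99 and 6.96 in MEM. The metallothionein MT1F gave 12.10 and 11.86 in DMEM, against 8.83 and 8.87 in MEM, and the collagen COL8A1 gave 11.26 and 11.29 in DMEM, against 8.23 and 8.16 in MEM. In RPMI-1640 these 4 averaged 11.38, 9.79, 11.51 and 10.48, nearer to DMEM than to MEM. CDH2, or N-cadherin, was higher in DMEM too (10.06 and 10.06 in DMEM, against 7.33 and 7.32 in MEM), and every other condition averaged 10.32 to 10.80.

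The largest decreases were genes that were bright in MEM alone. The cancer/testis antigen XAGE1A gave 6.85 and 6.65 in DMEM, against 13.08 and 13.13 in MEM, at least 70.7-fold lower in DMEM, where it was not above background. For a gene on no array above background in the dimmer condition, this bound sets each such array at the higher of its signal and its background. The other probes for XAGE1 copies, XAGE1B and XAGE1, were at least 61.1-fold and 51.1-fold lower, and the copies share sequence. CYBA, the small membrane subunit of NADPH oxidases, gave 6.40 and 6.50 in DMEM, against 12.13 and 12.13 in MEM (at least 35.9-fold lower). One probe for PRDX1, a peroxide-reducing enzyme, gave 7.16 and 7.27 in DMEM, against 13.02 and 13.09 in MEM. STMN3, a microtubule-destabilizing protein, gave 6.86 and 6.96 in DMEM, against 11.91 and 11.81 in MEM. None of these differed between DMEM and RPMI-1640 by the test, with log2 differences of -0.03 to 0.14.

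Detection differed between the 2 conditions as well. Of 47231 probes, 859 were above background on both DMEM arrays and on no MEM array. Of those 859, 191 were above it on both arrays of all 4 other conditions. Conversely, 2089 probes were above background on both MEM arrays and on no DMEM array, 812 of them on no array of any other condition. The backgrounds were unequal, at 6.93 and 6.99 on the DMEM arrays, against 6.91 and 6.92 on the MEM arrays. Above them lay 18766 and 16685 probes in DMEM, against 19318 and 18897 in MEM. How far this shifted the counts was not tested.

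MHC class II genes, which present antigen and depend on the activator CIITA, had the largest median difference of the lists. Of 15, 12 were higher in DMEM (11.9% of symbols) and 0 lower (12%), with a median log2 difference of 2.29, and all 12 were genes on which MEM stood apart from all 5 (5.58% of symbols). HLA-DRA gave 13.11 and 12.82 in DMEM, against 10.35 and 10.45 in MEM, the invariant chain CD74 gave 12.20 and 12.48 in DMEM, against 10.23 and 9.87 in MEM, and CIITA gave 7.55 and 7.63 in DMEM, against 6.77 and 6.88 in MEM. Against RPMI-1640 only HLA-DMA passed the test, at a log2 difference of 0.51. The HLA-DR copies share sequence, so their probes are no separate evidence.

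Of 22 YAP/TAZ targets, which respond to cell spreading and density, 16 were lower in DMEM than in MEM (12% of symbols) and 0 higher (11.9%), with a median log2 difference of -1.12. CTGF, a matricellular protein, gave 7.58 and 7.15 in DMEM, against 10.95 and 10.97 in MEM, and CYR61, its close relative, gave 9.29 and 9.39 in DMEM, against 12.30 and 12.0003 in MEM. AXL, a receptor tyrosine kinase, gave 10.16 and 10.36 in DMEM, against 13.04 and 12.39 in MEM. This group also had a smaller DMEM part, with 9 members lower (3.87%) and 1 higher (4.66%) than the mean of the other 4 conditions, and 6 lower and 0 higher than in RPMI-1640 (2.89% of symbols). CRIM1, a transmembrane BMP antagonist, gave 7.58 and 7.67 in DMEM, against 8.19 and 7.97 in MEM and averaged 9.29 in RPMI-1640, and NT5E, the ectoenzyme CD73, gave 7.13 and 6.92 in DMEM, against 9.72 and 9.77 in MEM and averaged 7.93. Those 2 members set DMEM apart from all 5 conditions (0.166% of symbols, lower), and MEM stood apart on 13 of the 22 (6.95%). AXL and NT5E are also in the list typical of MDA-MB-231 cells.

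**Figure D4:**
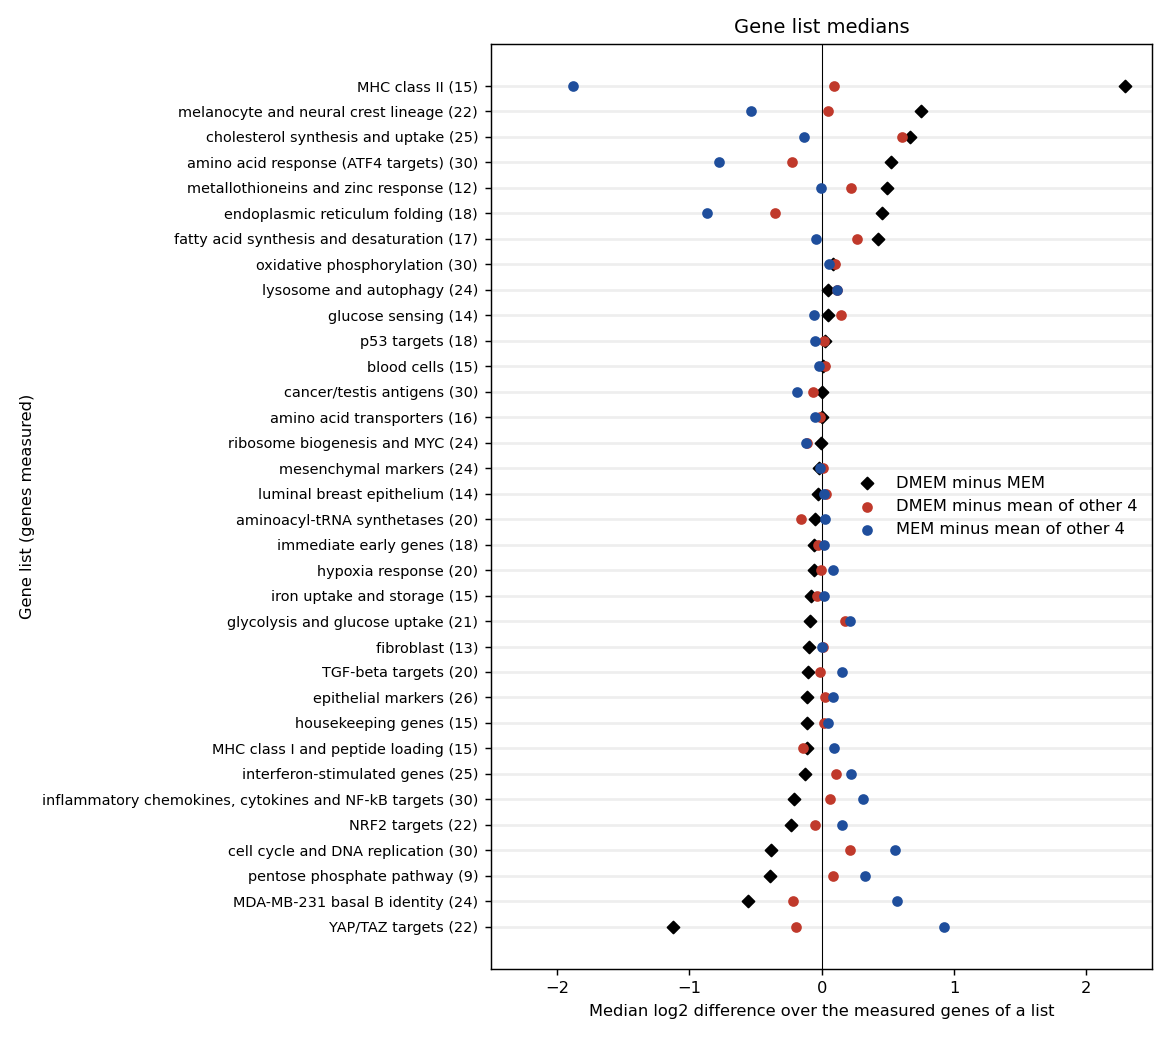
Median log2 difference of each gene list, with the number of genes measured, for DMEM minus MEM (black diamonds) and for DMEM (red) and MEM (blue) minus the mean of the other 4 conditions. The red point lies near the black one for cholesterol genes (0.61 and 0.67), while for MHC class II genes it lies near 0.

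Of 30 inflammatory genes 14 were lower in DMEM than in MEM (12% of symbols) and 2 were higher (11.9%), with a median log2 difference of -0.21. IL8, a neutrophil chemokine, gave 7.46 and 7.58 in DMEM, against 11.81 and 11.56 in MEM (log2 difference -4.16 ± 0.18, SE, adjusted p = 1.48e-10, limma), and its second probe gave 7.18 and 7.34 in DMEM, against 10.39 and 10.33 in MEM. NFKBIA, the inhibitor that NF-kB itself induces, gave 9.51 and 9.52 in DMEM, against 11.68 and 11.38 in MEM, and IL1B gave 6.63 and 6.71 in DMEM, against 9.04 and 9.01 in MEM, below background in DMEM. Against the mean of the other 4 conditions 1 of the 30 was higher and 1 lower in DMEM (4.66% and 3.87% of symbols), while 17 were higher and 3 lower in MEM (13.9% and 12.9%).

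Of 30 amino acid response genes, the targets of ATF4, 13 were higher in DMEM than in MEM (11.9% of symbols) and 1 was lower (12%), with a median log2 difference of 0.52. TRIB3, a pseudokinase of this response, gave 10.84 and 10.68 in DMEM, against 8.72 and 8.59 in MEM, and the asparagine synthetase ASNS gave 10.55 and 10.76 in DMEM, against 9.34 and 9.22 in MEM. HS averaged 12.27 and 12.09 for these 2 genes, above DMEM. Of the 30, DMEM was lower than HS on 22 (2.7% of symbols) and lower than 0.1% FBS on 17 (6.51%), and higher than RPMI-1640 on 6 (2.94%). DDIT3, the stress factor CHOP, was among those 6, at 8.48 and 8.76 in DMEM, against a mean of 7.33 in RPMI-1640.

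Cell cycle genes were lower in DMEM than in MEM on 14 of 30 (12% of symbols) and higher on 3 (11.9%), with a median log2 difference of -0.38. MCM5, a subunit of the replicative helicase, gave 9.93 and 9.90 in DMEM, against 11.54 and 11.24 in MEM, and cyclin D1, or CCND1, gave 11.06 and 11.15 in DMEM, against 12.25 and 12.12 in MEM. The 3 that were higher act in mitosis. They were CCNB2 (11.45 and 11.55 in DMEM, against 10.56 and 10.43 in MEM), PLK1 (8.25 and 8.57 in DMEM, against 7.47 and 7.39 in MEM) and CDC20 (12.53 and 12.73 in DMEM, against 11.74 and 11.65 in MEM). Against RPMI-1640 7 of the 30 were lower and 0 higher (2.89% and 2.94% of symbols), and against 0.1% FBS 24 were higher and 0 lower (7.05% and 6.51%).

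The melanocyte and neural crest list was higher in DMEM on 14 of 22 (11.9% of symbols) and lower on 0 (12%). SOX10, which specifies this lineage, gave 11.09 and 11.11 in DMEM, against 8.29 and 8.22 in MEM, and MITF, the melanocyte regulator, gave 9.21 and 8.84 in DMEM, against 7.63 and 7.63 in MEM. Against RPMI-1640 only CAPN3 and CITED1 passed the test. CAPN3, a calpain with a form made in melanocytes, gave 10.09 and 10.02 in DMEM, against 8.89 and 8.72 in MEM and averaged 8.14 in RPMI-1640. The list typical of MDA-MB-231 cells was lower in DMEM on 17 of 24 (12% of symbols) and higher on 1 (11.9%), led by TGFBI, a matrix protein (7.82 and 7.59 in DMEM, against 11.96 and 11.93 in MEM), and the urokinase PLAU (6.90 and 7.12 in DMEM, against 10.63 and 10.49 in MEM). Against RPMI-1640, 11 of these 24 were lower and 0 higher (2.89% and 2.94% of symbols).

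Genes of the epithelial and mesenchymal state depended on the probe and on the table read. In the log2 table the 2 probes of VIM, an intermediate filament of mesenchymal cells, gave 13.87 and 13.79 in DMEM, against 13.86 and 13.66 in MEM, and 13.54 and 13.70 in DMEM, against 13.40 and 13.21 in MEM. Their log2 differences were 0.07 ± 0.12 (SE, adjusted p = 0.791) and 0.31 ± 0.10 (adjusted p = 0.0433, limma). CDH1, or E-cadherin, was not above background in either medium, at 6.51 and 6.50 in DMEM, against 6.46 and 6.50 in MEM. CD44, the hyaluronan receptor, gave 12.26 and 12.003 in DMEM, against 12.48 and 12.42 in MEM on its brightest probe, a log2 difference of -0.32 ± 0.11 (adjusted p = 0.0478, limma), and 10.02 and 9.97 in DMEM, against 10.72 and 10.62 in MEM on the next. CD24, a surface sialoglycoprotein, gave 6.40 and 6.56 in DMEM, against 8.13 and 8.27 in MEM, at least 2.36-fold lower in DMEM. Its second probe did not pass the test (log2 difference -0.20 ± 0.11, SE, adjusted p = 0.24, limma).

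The authors also deposited the normalized signals on a linear scale, and 8 probes have other values there. They stand exchanged in pairs, among them CDH1 with CD82 and the 2 VIM probes with HLA-DRA and TNFRSF14. In the linear table, on the log2 scale, the VIM probes differed between DMEM and MEM by 2.74 and 3.18, CDH1 by -2.64 and one CD44 probe by 0.57. The corresponding differences in the log2 table were 0.07, 0.31, 0.02 and -0.67. Which table holds the right pairing was not tested, since no probe-level scanner data were used here. A second HLA-DRA probe and a second CD82 probe have the same values in both tables. That HLA-DRA probe gave 13.11 and 12.82 in DMEM, against 10.35 and 10.45 in MEM, and that CD82 probe gave 7.96 and 8.23 in DMEM, against 10.31 and 10.32 in MEM. The VIM probe paired with HLA-DRA gave, in the linear table, 13.06 and 12.96 in DMEM, against 10.26 and 10.27 in MEM, and the CDH1 probe gave 7.40 and 7.58 in DMEM, against 10.24 and 10.03 in MEM. In the log2 table these values stand at the exchanged HLA-DRA and CD82 probes, with log2 differences of 2.74 and -2.64. The second probes of HLA-DRA and CD82 differed by 2.56 and -2.22. In the linear table the exchanged HLA-DRA and CD82 probes differed by 0.07 and 0.02. Both probes of each of these genes thus differed alike in the log2 table only.

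**Figure D5:**
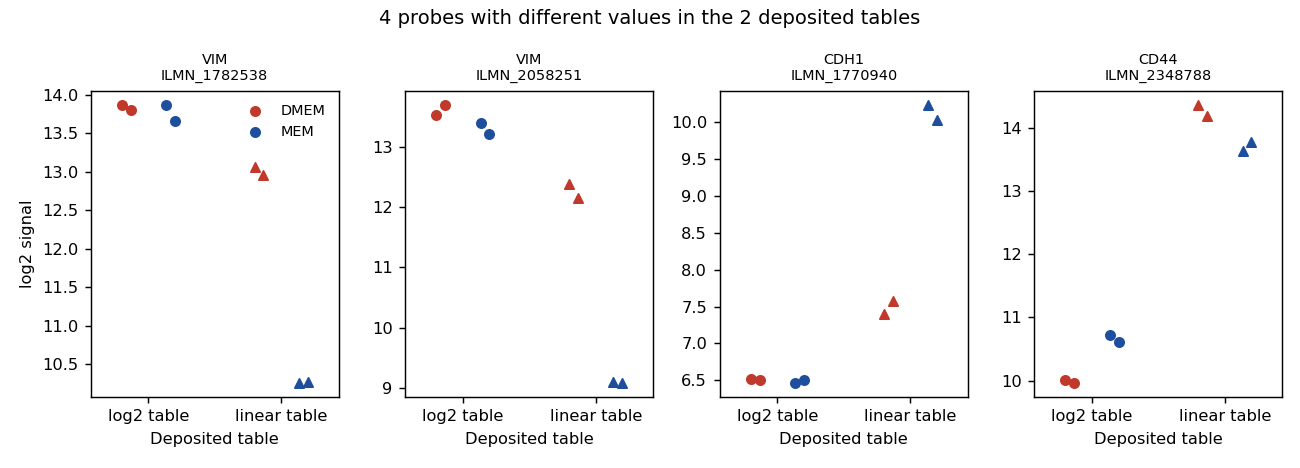
Log2 signal on the 2 DMEM arrays (red) and the 2 MEM arrays (blue) for 4 probes, in the deposited log2 table (circles) and in the deposited linear table after taking log2 (triangles). Both VIM probes separate DMEM from MEM in the linear table, by 2.74 and 3.18, and by 0.07 and 0.31 in the log2 table.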

How the data were processed

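RNA of 12 samples was hybridized to Illumina HumanHT-12 BeadChips and read in BeadStudio, per the labels. The authors normalized the arrays by quantiles in limma and deposited signal intensities and their log2 values, which the series table repeats. Detection p-values were not used here. The log2 table was analyzed. Limma (3.58.1, R 4.3.3) was fitted to all probes and 12 arrays with a mean per condition, with 6 residual and 8.96 prior degrees of freedom, and p-values were adjusted by Benjamini-Hochberg over 47231 probes. A medium stood apart when it differed from each of the other 5 conditions in 1 direction at an adjusted p under 0.05. Lists were read on the brightest probe of each symbol, with no test of their own. The comparison and the lists were chosen with earlier results of these data known.

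Genes were named by rule. The rule takes IL8, S100A4, VIM, CDH1, CD44, CD24 and ACTB, the 8 largest increases and decreases, the 12 of each with the widest DMEM margin, the 6 of each for MEM, and at most 6 called genes from a list. Members named without a call serve as context. A few genes are not reported here by name. Of the 47231 probes 3270 have no gene name, and 54 names had become dates. The numbers of arrays limit the precision. Sequences come from RefSeq (GRCh38.p14). The fit was tested on simulated data. Alternatives were other scalings, the linear table, 1 probe per symbol, a background filter, trended variance, the replicate number as block, left-out arrays, stricter thresholds and the methods' t-test. Normalization with neqc and a detection filter were not run. Figures used Python 3.11.15 and matplotlib 3.10.9.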

Additional observations from a re-analysis of the deposited data

How the results depend on the processing

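Counts of probes kept within 1.5 times under other scalings, the linear and series tables, trended variance and the background filter. The labels do not say whether the replicate number pairs samples. The deviations of DMEM and MEM arrays with the same number correlated at -0.02, and those of the 15 pairs of conditions at -0.06 to 0.13. These correlations cannot tell whether arrays of the same number were handled together. With the replicate number as a block 9988 probes were called. Leaving out each DMEM or MEM array gave 7240 to 8200 called probes between DMEM and MEM, 1112 to 2935 for DMEM and 8096 to 11057 for MEM against the mean of the other 4 conditions, 67 to 104 on which DMEM stood apart (159 with all arrays), 3693 to 4580 for MEM (5004), and 1083 to 1976 between DMEM and RPMI-1640. At an adjusted p under 0.01 DMEM differed from the mean of the other 4 on 1738 probes, stood apart on 47 and differed from RPMI-1640 on 1152. With at least 2-fold in each difference, 2408 probes remained between DMEM and MEM, 99 for DMEM and 2150 for MEM against the other 4, 219 against RPMI-1640 and 9 of the 25 cholesterol genes against RPMI-1640. DMEM then stood apart on 2 probes and MEM on 1156, with 1250 in both or neither class, against 4797. The methods' t-test at P under 0.001 called 804 probes between DMEM and MEM, and 330 after Benjamini-Hochberg. Without 0.1% FBS among the conditions, an alternative chosen after seeing the data, DMEM stood apart on 304 probes. In the linear table CDH1 (-2.64) and a CD44 probe (0.57), both among the exchanged probes, changed sign. Leaving out single arrays gave -0.030 to 0.17 for the brighter VIM probe, which turned negative without MEM replicate 2, and -0.12 to 0.044 for the dimmest CD44 probe, which turned positive without MEM replicate 2 or DMEM replicate 1. Medians of 16 lists moved when all probes of a symbol were averaged, that of MHC class II to 1.62 and that of YAP/TAZ targets to -0.88. Low-signal probes limit what could be seen, since 16583 of 31334 symbols were above background on no DMEM array.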

Other observations

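With the 0.1% FBS arrays left out of the conditions compared, 195 probes were higher and 109 lower in DMEM than in MEM, RPMI-1640, HS and 50% confluence alike (0.413% and 0.231% of probes). Genes named here were chosen after their values were seen. Beside the lipid genes, those on the high side included SPP1, or osteopontin (12.07 and 11.90 in DMEM, against 10.46 and 10.29 in MEM), and the kinase RAGE (11.55 and 11.54 in DMEM, against 9.81 and 9.66 in MEM). Their means in 0.1% FBS were 12.56 and 11.17. On the low side IL7R, a cytokine receptor chain, gave 8.01 and 7.98 in DMEM, against 9.09 and 9.03 in MEM on its brighter probe, with a mean of 7.18 in 0.1% FBS and 10.01 at 50% confluence. ERRFI1, a feedback inhibitor of the EGF receptor, gave 8.75 and 8.91 in DMEM, against 10.51 and 10.46 in MEM. DKK1, a secreted Wnt antagonist, gave 10.24 and 10.25 in DMEM, against 11.08 and 11.12 in MEM.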
